A study of Mus musculus with 6 samples.

Results

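The 10 genes described here encode the interleukin-4 (IL-4) receptor axis of mouse macrophages and a set of transcripts that mark alternative activation. They are the receptor chains Il4ra and Il13ra1, the signal transducer Stat6, the transcription factors Irf4, Klf4, Egr2 and Myc, and the effectors Arg1, Clec10a and Thbs1. They were taken as a fixed list of symbols, matched through Ensembl identifiers in a GENCODE annotation of GRCm38. All 10 were found among 46603 gene rows, and all 10 were among the 12767 genes with enough counts to test. The macrophages were grown from the bone marrow of C57BL/6/J mice aged 7 weeks, with 20% L929 cell-conditioned medium as the source of growth factor. The treatment protocol states that they were detached on day 6, seeded again, and stimulated 6 h later with medium conditioned by cancer cells. The group called with lipids (n = 3 libraries) received that medium with its lipids present, and the group called without lipids (n = 3 libraries) received it with lipids absent. No genetic change is given for either group. The sources used here do not name the cancer cells, the means of lipid removal or the length of stimulation, and a group of macrophages in plain medium was not analysed here.

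IL-4 binds IL4RA, which pairs with the common gamma chain (Il2rg) to form the type I receptor or with IL13RA1 to form the type II receptor, the form that also answers to IL-13. Janus kinases bound to these chains phosphorylate STAT6, which dimerises, enters the nucleus and drives transcription. In mouse macrophages this programme raises arginase 1, C-type lectins and the factors IRF4, KLF4 and EGR2, a state called alternative or M2 activation.

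The promoter windows of the genes are shown first, because genes of the same pathway moved in different directions and their start regions let a reader compare them. RefSeq windows on GRCm38.p6, from 250 bases before to 50 bases after an annotated start, were found for 6 of the 10 genes, which were Il4ra, Il13ra1, Stat6, Irf4, Klf4 and Egr2. They gave 10 windows, since Egr2 had several annotated starts. The 5 windows printed are those of the receptor chain that rose, its partner chain, 2 factors on which the results turn, and Klf4, which carries EGR boxes. Each is read 5′ to 3′ on the strand of the gene. Capitals mark matches on either strand to the EGR box GCGNGGGCG, the KLF box CCACCC, or the E-box CACGTG bound by MYC and MAX, and the matches did not overlap each other.
Il4ra chr7:125552021-125552320 (+): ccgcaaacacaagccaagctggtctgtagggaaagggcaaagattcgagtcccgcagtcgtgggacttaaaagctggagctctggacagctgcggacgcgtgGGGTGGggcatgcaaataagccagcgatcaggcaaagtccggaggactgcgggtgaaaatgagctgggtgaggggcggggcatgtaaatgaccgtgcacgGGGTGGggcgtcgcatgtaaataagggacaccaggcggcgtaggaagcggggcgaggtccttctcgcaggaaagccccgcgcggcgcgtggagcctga
Il13ra1 chrX:36111858-36112157 (+): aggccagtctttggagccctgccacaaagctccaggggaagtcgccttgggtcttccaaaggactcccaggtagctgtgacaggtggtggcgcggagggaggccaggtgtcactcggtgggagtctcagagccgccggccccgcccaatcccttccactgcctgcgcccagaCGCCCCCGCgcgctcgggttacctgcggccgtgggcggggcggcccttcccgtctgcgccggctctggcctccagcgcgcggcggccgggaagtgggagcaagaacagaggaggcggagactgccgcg
Klf4 chr4:55532426-55532725 (-): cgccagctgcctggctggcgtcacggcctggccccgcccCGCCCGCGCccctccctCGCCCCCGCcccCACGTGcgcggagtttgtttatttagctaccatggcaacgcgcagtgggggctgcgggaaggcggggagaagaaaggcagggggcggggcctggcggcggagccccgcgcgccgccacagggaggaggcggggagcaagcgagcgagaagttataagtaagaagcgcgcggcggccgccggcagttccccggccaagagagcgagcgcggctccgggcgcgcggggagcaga
Egr2 chr10:67535249-67535548 (+): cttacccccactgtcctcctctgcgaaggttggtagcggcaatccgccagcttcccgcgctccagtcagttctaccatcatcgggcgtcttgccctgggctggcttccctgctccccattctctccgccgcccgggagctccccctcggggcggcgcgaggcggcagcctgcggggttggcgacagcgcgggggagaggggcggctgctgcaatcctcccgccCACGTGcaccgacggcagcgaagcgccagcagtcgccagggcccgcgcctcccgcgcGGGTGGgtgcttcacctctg
Irf4 chr13:30748983-30749282 (+): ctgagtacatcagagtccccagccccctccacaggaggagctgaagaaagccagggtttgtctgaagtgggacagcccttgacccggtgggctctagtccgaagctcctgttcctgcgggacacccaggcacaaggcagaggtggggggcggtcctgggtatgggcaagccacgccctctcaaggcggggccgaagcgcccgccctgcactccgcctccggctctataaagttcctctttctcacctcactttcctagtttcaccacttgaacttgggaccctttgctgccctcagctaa
The Il4ra window held the KLF box 2 times, read here as its reverse complement. The Stat6 window, which is not printed, held it 1 time. The KLF box was found in 31.5% of all 32851 windows in the table, the EGR box in 5.55% and the E-box in 7.15%. The Klf4 window held 2 EGR boxes and 1 E-box, and the Il13ra1 window held 1 EGR box. The Egr2 window printed held 1 KLF box and 1 E-box. The other Egr2 windows, from starts further downstream, held no E-box, and some held a KLF box while others held no match. The Irf4 window held no match, so it has no capitals. The palindrome bound by STAT6, TTC and GAA parted by any 4 bases, was in 0 of the 10 windows of these genes, against 6.95% of all windows, and the tandem IRF motif, GAAA repeated after any 2 bases, was in 0 of 10, against 3.44%. Several Egr2 windows overlap each other, so the 10 windows are not independent, and so few cannot show a lack of either motif. These matches describe letters in a short window and say nothing of binding there or elsewhere.

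In macrophages given medium with lipids, the transcripts of Il4ra, Irf4, Arg1, Clec10a and Thbs1 were higher and that of Egr2 was lower. Il4ra was 1.83-fold higher, Irf4 1.84-fold, Arg1 1.99-fold, Thbs1 1.52-fold and Clec10a 1.40-fold, and Egr2 was 2.18-fold higher in the group without lipids. Stat6, Il13ra1, Myc and Klf4 did not pass the test. Of the 10 genes, 5 were called higher and 1 lower by edgeR's quasi-likelihood test at a Benjamini-Hochberg adjusted p of 0.05. Over all tested genes 11.5% were called, 4.58% higher and 6.87% lower with lipids. With libraries scaled by their totals alone, the calls over all genes were 1241 higher and 596 lower, in place of 585 higher and 877 lower, and the median of all tested genes lay at 0.07 log2. The median log2 fold change of the 10 genes was 0.37, against -0.0032 for all tested genes. The groups did not overlap for 7 of the 10 genes, against 30.5% of all tested genes. The 10 genes were chosen with earlier results of these data known, so these figures cannot show that the set differs from other genes.

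**Figure D1:**
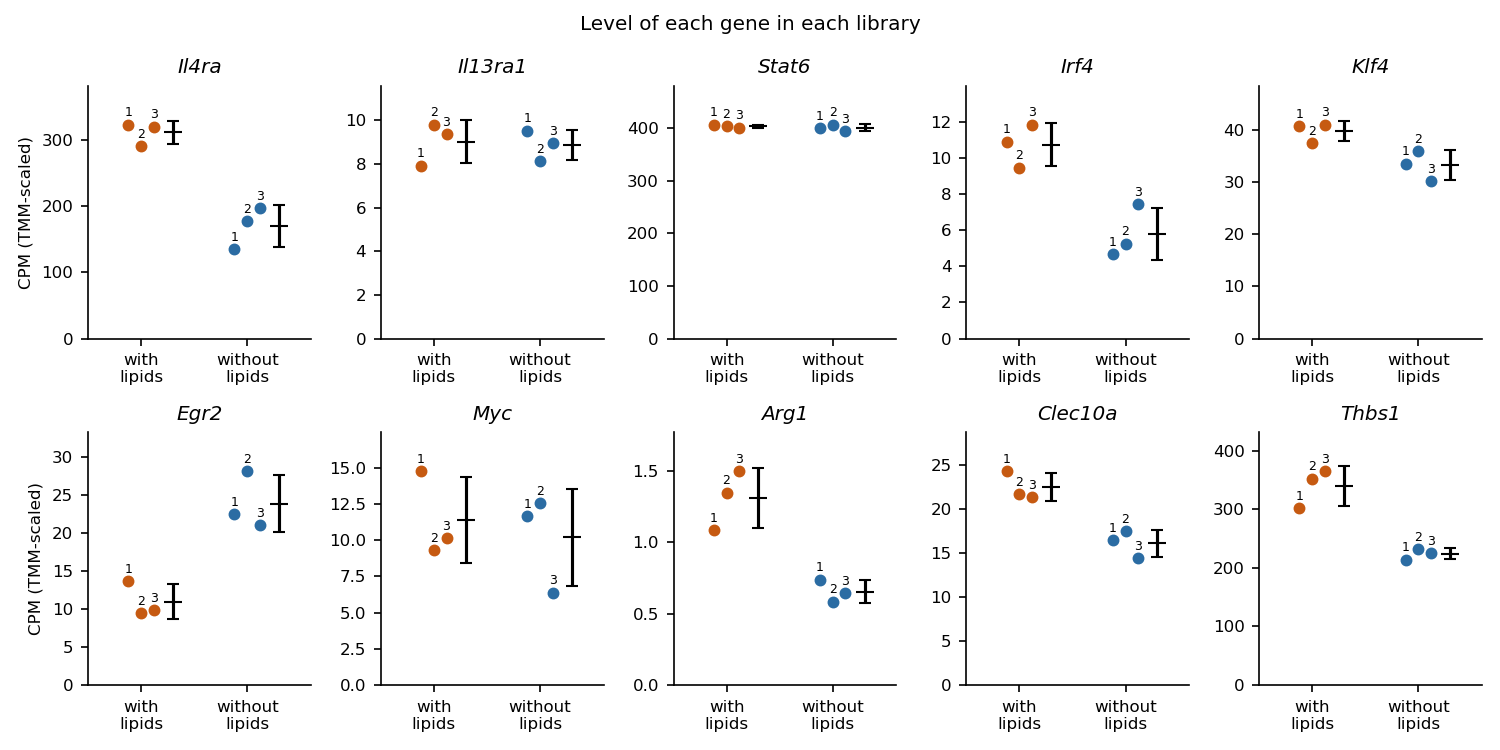
Level of each of the 10 genes in each library, in counts per 1000000 scaled by TMM factors (CPM, vertical axes from 0, a scale of its own for each gene). Numbered points are replicates, and bars give mean ± SD (n = 3 per group). Il4ra, Irf4, Arg1, Clec10a, Klf4 and Thbs1 were higher in all 3 libraries with lipids than in any without, Egr2 was lower in all 3, and Stat6, Il13ra1 and Myc overlapped.

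Levels are given as CPM, counts per 1000000 after TMM scaling of each library. Total counts were 20778651 to 25323053 with lipids and 19429022 to 22330119 without lipids, so 3 counts, up to which a gene at 0 could lie, came to 0.115 to 0.14 CPM with lipids and 0.138 to 0.159 CPM without lipids. These limits cover counting error only. Nothing in the labels ties replicates to separate mice or cultures, and p-values therefore reflect only how these libraries vary, which may be technical. Of 8 macrophage markers, all 8 were tested, and their summed level was 29182 to 29539 CPM with lipids and 29500 to 34376 CPM without lipids. Lyz2 made up most of that sum, at a mean of 19746 CPM with lipids and 22177 CPM without lipids. It did not pass (edgeR adjusted p = 0.189). In these bulk samples, fewer cells that express a gene and less RNA per cell cannot be told apart. In a principal component analysis, replicate 1 without lipids stood apart on the second component at -22.96, where the other 5 libraries lay between -1.17 and 13.95. Results that change without it are given with the value without it.

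Il4ra (ENSMUSG00000030748, chr7:125552120-125579474, plus strand), the chain that binds IL-4, rose with lipids. It stood at 323, 291 and 320.2 CPM in the libraries with lipids and at 135, 177 and 197 CPM in those without. The lowest library with lipids lay well above the highest without, and the spread was wider without lipids. The mean was 311 ± 17.9 CPM with lipids and 169.8 ± 31.5 CPM without lipids (SD, n = 3 each). The log2 fold change, with minus without lipids, was 0.87 (SE 0.11, edgeR adjusted p = 0.000693, 95% interval 0.62 to 1.12). The lowest value without lipids was in replicate 1, and without that library the log2 fold change was 0.74. An antisense gene, Gm44876, shares 571 exon bases with Il4ra and was not analysed here.

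Il13ra1 (ENSMUSG00000017057, chrX:36112110-36171259, plus strand), the chain that completes the type II receptor, was at 7.91, 9.80 and 9.36 CPM with lipids and 9.52, 8.11 and 8.95 CPM without lipids. The groups lay on top of each other. Its log2 fold change was 0.03 (SE 0.12, edgeR adjusted p = 0.909), with a 95% interval from -0.23 to 0.29. Its sign turned in some fits that left out a library, with values between -0.04 and 0.11 in all 6. Il2rg, the common gamma chain of the type I receptor, changed the other way from Il4ra. It averaged 42.8 ± 4.7 CPM with lipids against 57.8 ± 3.9 CPM without lipids, or -0.43 on the log2 scale (SE 0.09, edgeR adjusted p = 0.0094). That call was lost without replicate 2 or 3 with lipids (adjusted p = 0.0644 and 0.055).

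The balance of the transcripts of the receptor chains was compared within libraries as a ratio of counts per kb of exon, which needs no scaling between libraries. Receptor protein was not measured here. The ratio of Il4ra to Il2rg was 2.67, 2.96 and 3.09 with lipids and 0.987, 1.24 and 1.26 without lipids. Every library with lipids held more Il4ra per kb than Il2rg, and the ratio was nearer 1 in those without. Il2rg shares 728 exon bases with Gm20489 on the same strand, which had 0 counts. How reads there were counted is not known, so the size of this ratio is uncertain. The ratio of Il4ra to Il13ra1 was 25.3, 18.4 and 21.2 with lipids and 8.79, 13.5 and 13.6 without lipids. The groups did not overlap for either ratio. The difference of the mean log2 ratio was 1.33 for Il2rg and 0.87 for Il13ra1, and each had a p of 0.1 in a two-sided exact permutation test, which cannot go lower with 3 against 3 libraries. The values moved to between 1.21 and 1.39 and between 0.66 and 0.98 when each library was left out, an alternative chosen after seeing the data. Since Il4ra itself rose in the fit on all genes, these ratios are not independent of its call.

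Of the ligands, Il13 was at 0 counts in all 6 libraries. Il4 had 61, 74 and 74 counts in libraries with lipids, against 44, 42 and 77 in those without, or 3.02 ± 0.38 CPM with lipids and 2.69 ± 0.73 CPM without lipids. The groups overlapped, and the log2 fold change was 0.15 (SE 0.20, edgeR adjusted p = 0.686). Of 8 mast cell and basophil markers, whose cells are known sources of IL-4, 5 were at 0 in all libraries, among them Fcer1a and Ms4a2. The 8 together came to 0.346 to 0.421 CPM with lipids and 0.212 to 0.643 CPM without lipids. Of 8 T cell and innate lymphoid cell markers, 2 were tested and both fell, Il7r to 188 CPM with lipids, against 388 CPM without lipids, and Cd4 to 6.54 CPM with lipids, against 14.6 CPM without lipids (edgeR adjusted p = 7.02e-06 and 0.000879). Over all tested genes, 6.87% were called lower with lipids. The 8 T cell and innate lymphoid cell markers summed to 188 to 200.4 CPM with lipids and 385 to 429 CPM without lipids. Of the other 6, Lck had 6 to 13 counts per library, Cd3d, Cd3g and Gata3 had at most 2, and Cd3e and Cd8a were at 0 in all 6 libraries. The part of these cells in the Il4 level was not tested.

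Stat6 (ENSMUSG00000002147, chr10:127642986-127660957, plus strand), the factor that the receptor activates, differed least of the 10 genes. It was at 407, 404 and 401 CPM with lipids and 401, 407 and 394 CPM without lipids. The values of all 6 libraries lay within a narrow band and overlapped between groups. Its log2 fold change was 0.01 (SE 0.05, edgeR adjusted p = 0.907), with a 95% interval from -0.10 to 0.12. Stat6 shares 40 exon bases with Nab2 on the opposite strand, which held 3050 counts in all libraries together against 51937 for Stat6. The level of a transcript does not show how much STAT6 protein was phosphorylated.

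Irf4 (ENSMUSG00000021356, chr13:30749226-30766976, plus strand), a factor known to support expression of alternative activation genes in mouse macrophages, rose with lipids. It was at 10.9, 9.46 and 11.8 CPM with lipids and 4.68, 5.25 and 7.44 CPM without lipids. The groups did not overlap, though replicate 3 without lipids came nearest to the libraries with lipids. The log2 fold change was 0.88 (SE 0.16, edgeR adjusted p = 0.0062), between 0.74 and 1.11 when each library was left out, and it passed in all 14 alternative analyses. IRF4 is also a factor of dendritic and B cells. Of 8 dendritic cell markers, the most abundant reached 14 counts in a library and the 8 summed to 0.633 to 1.78 CPM with lipids and 0.901 to 1.38 CPM without lipids. Of 7 B cell and plasma cell markers, 3 were at 0 in all libraries, Pax5 among them, and the 7 summed to 1.76 to 2.23 CPM with lipids and 1.52 to 2.39 CPM without lipids. Most of that sum was Cd79b, with 36, 51 and 35 counts in libraries with lipids, against 28, 34 and 48 in those without, and it did not pass (edgeR adjusted p = 0.858). Ms4a1 had 2, 2 and 7 counts in libraries with lipids and was at 0 in all 3 without. The part of either cell type in the Irf4 result was not tested.

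Egr2 (ENSMUSG00000037868, chr10:67535475-67542188, plus strand), a zinc-finger factor that IL-4 induces in mouse macrophages and that growth signals also induce, was the member that fell. It was at 13.7, 9.49 and 9.82 CPM with lipids and 22.5, 28.2 and 21.03 CPM without lipids. The highest library with lipids, replicate 1, remained below the lowest without. The log2 fold change was -1.12 (SE 0.15, edgeR adjusted p = 0.000929), a 2.18-fold higher level without lipids, and only 0.862% of tested genes had a larger change in either direction. It passed in all 14 alternative analyses, at -0.99 to -1.31 when each library was left out. Its relative Egr1 averaged 1.89 ± 0.31 CPM with lipids against 1.64 ± 0.09 CPM without lipids, or 0.21 on the log2 scale (SE 0.19, edgeR adjusted p = 0.532). Nab1 and Nab2, which encode corepressors that bind EGR proteins, did not pass, with log2 fold changes of -0.08 and -0.11 (edgeR adjusted p = 0.54 and 0.503).

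Klf4 (ENSMUSG00000003032, chr4:55527143-55532466, minus strand), a factor that cooperates with STAT6 in mouse macrophages, was at 40.7, 37.5 and 41.0 CPM with lipids and 33.5, 35.9 and 30.2 CPM without lipids. The groups did not overlap but lay close together. Its log2 fold change of 0.26 (SE 0.08) did not pass (edgeR adjusted p = 0.0667). It did pass in 4 of 14 alternative analyses, among them scaling by totals alone (0.34, edgeR adjusted p = 0.0197) and a fit that left out replicate 1 without lipids (0.27, edgeR adjusted p = 0.0197).

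Myc (ENSMUSG00000022346, chr15:61985391-61990374, plus strand), a growth factor-induced transcription factor, varied widely among replicates. It was at 14.8, 9.30 and 10.2 CPM with lipids and 11.7, 12.6 and 6.38 CPM without lipids. Both groups held a library set apart from its other 2, replicate 1 with lipids on the high side and replicate 3 without lipids on the low side. The log2 fold change was 0.17 (SE 0.24, edgeR adjusted p = 0.70), its 95% interval ran from -0.35 to 0.69, and its sign turned without either of those libraries, to -0.06 and -0.09.

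Arg1 (ENSMUSG00000019987, chr10:24915221-24927484, minus strand), the enzyme that splits arginine to ornithine and urea and a standard mark of alternative activation in mice, was the least abundant of the 10. It had 24, 35 and 32 counts (1.08, 1.35 and 1.497 CPM) in libraries with lipids, against 14, 11 and 14 counts (0.736, 0.583 and 0.643 CPM) in those without. The groups did not overlap at either count or CPM. The log2 fold change was 0.995 (SE 0.24, edgeR adjusted p = 0.023), with a wide 95% interval from 0.46 to 1.53. The call was lost with DESeq2 (adjusted p = 0.0783), when replicate 2 or 3 with lipids was left out (0.0959 and 0.101), and when replicate 2 or 3 without lipids was (0.0979 and 0.0548). The gene rests on few counts.

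Clec10a (ENSMUSG00000000318, chr11:70156197-70170834, plus strand), which encodes the galactose-type lectin MGL1 or CD301a of mouse macrophages and dendritic cells, was at 24.3, 21.7 and 21.3 CPM with lipids and 16.4, 17.4 and 14.4 CPM without lipids. All 3 libraries with lipids lay above those without. With minus without lipids, the log2 fold change was 0.48 (SE 0.10, edgeR adjusted p = 0.00947), a call lost without replicate 1 with lipids (adjusted p = 0.0617). Its close copy Mgl2 had 19, 20 and 18 counts in libraries with lipids, against 7, 12 and 2 in those without, and did not pass (log2 fold change 1.20, SE 0.43, edgeR adjusted p = 0.102). Reads of this pair may be shared, so the division between them is uncertain.

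Thbs1 (ENSMUSG00000040152, chr2:118111876-118127133, plus strand), the secreted matrix protein thrombospondin-1, which binds CD47 and CD36 and can activate latent TGF-beta, had the smallest p of the 10. It was at 302, 352 and 365 CPM with lipids and 214, 232 and 225 CPM without lipids. The lowest library with lipids, replicate 1, stood clear of all 3 without lipids. Its log2 fold change was 0.60 (SE 0.08, edgeR adjusted p = 0.000562) and passed in all 14 alternative analyses. Platelets and fibroblasts also carry Thbs1. Of 7 platelet and megakaryocyte markers, 4 were tested, 2 rose (Pf4 and Ppbp) and 0 fell, and the 7 summed to 421 to 436 CPM with lipids and 226 to 262 CPM without lipids. Pf4 made up most of that sum. Gp1ba had 32, 46 and 31 counts in libraries with lipids, against 21, 24 and 24 in those without, and Treml1 had 82, 95 and 84, against 51, 62 and 81 in those without, and neither passed (edgeR adjusted p = 0.195 and 0.415). Of the 3 markers below the filter, Itga2b had 4 to 14 counts per library, and Gp9 and Gp6 had at most 1. Of 8 fibroblast markers, 7 were tested, 0 rose and 1 fell (Col3a1), and the 8 summed to 133 to 142 CPM with lipids and 140.0 to 185 CPM without lipids. Over all tested genes, 4.58% were called higher and 6.87% lower with lipids. The part of platelets or fibroblasts in the Thbs1 result was not tested.

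**Figure D2:**
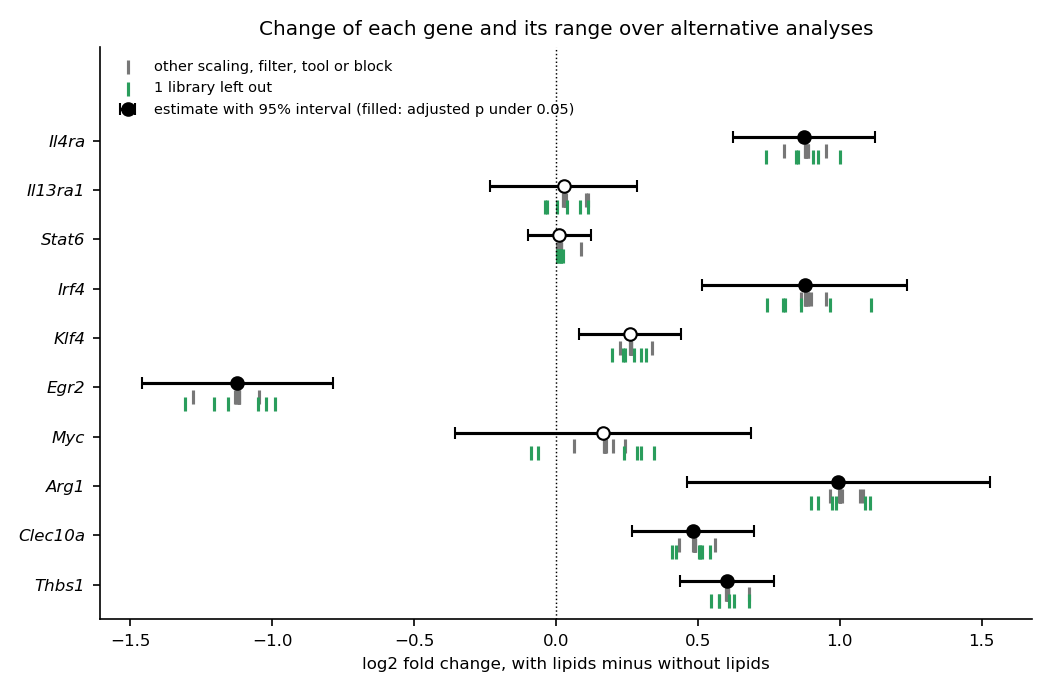
Log2 fold change of each gene, with lipids minus without lipids, on the horizontal axis. Points with bars are the edgeR estimates with 95% intervals, filled where the adjusted p was under 0.05, and ticks below them are the same value under other scalings, filters, tools or the replicate block (grey) and with 1 library left out (green). Only the ticks of Il13ra1 and Myc fell on both sides of 0.

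Set per kb of exon, the 10 genes spanned a wide range of levels. With lipids, Stat6 was highest at 91.7 CPM per kb, then Thbs1 at 56.0, Il4ra at 51.9, Klf4 at 13.0, Clec10a at 7.74, Myc at 4.20, Egr2 at 3.23, Il13ra1 at 2.43, Irf4 at 2.19 and Arg1 at 0.588. In this order 3 neighbouring pairs overlapped in their library ranges, namely Thbs1 and Il4ra, Myc and Egr2, and Il13ra1 and Irf4. Without lipids, Egr2 stood at 7.04 CPM per kb, above Clec10a at 5.54 and Myc at 3.76. Il4ra stood at 28.3 CPM per kb and Thbs1 at 36.9, and these no longer overlapped. Only Myc and Il13ra1 overlapped as neighbours without lipids.

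**Figure D3:**
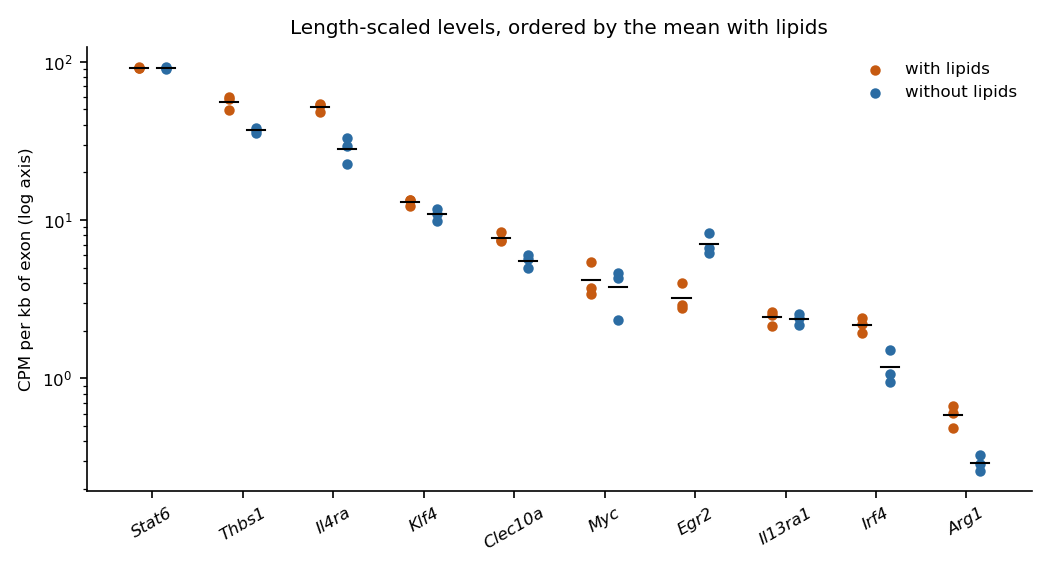
Level of each gene per kb of exon (CPM per kb, log axis) in each library with lipids (left of each pair) and without lipids (right), with horizontal lines at group means. The genes are ordered by the mean with lipids, from Stat6 at 91.7 to Arg1 at 0.588, and Egr2 is the gene whose libraries without lipids lie higher.

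Of 24 other genes of IL-4 and IL-13 signalling, 19 were tested, 2 were higher and 1 was lower, with a median log2 fold change of 0.03. Over all tested genes 11.5% were called in either direction. Besides Il2rg, the called genes were Inpp5d, which encodes the lipid phosphatase SHIP1, at 0.24 (SE 0.05, edgeR adjusted p = 0.015), and Stat3, at 0.29 (SE 0.08, edgeR adjusted p = 0.0316), which overlaps Stat5a on the other strand. These 2 calls were lost when any library with lipids, or replicate 2 without lipids, was left out. The lower calls numbered 2 without replicate 1 with lipids, 0 without replicate 2 or 3 with lipids, and 4 when replicate 1 without lipids was left out. The kinases of the receptor did not pass, with log2 fold changes of 0.04 for Jak1, -0.01 for Jak2, 0.19 for Jak3 and -0.16 for Tyk2 (edgeR adjusted p = 0.732, 0.975, 0.485 and 0.354).

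Other alternative activation genes moved in both directions. Of 32 listed, 22 were tested, 2 were higher and 5 lower, with a median of -0.19. Over all tested genes 11.5% were called, 4.58% higher and 6.87% lower. The higher ones were Mrc1, the mannose receptor CD206, at 0.75 (SE 0.05, edgeR adjusted p = 1.49e-05), and Cd163, the haemoglobin scavenger receptor, at 0.88 (SE 0.08, edgeR adjusted p = 4.44e-05). The lower ones with the smallest p were Atp6v0d2, a proton pump subunit, at -1.51 (SE 0.07, edgeR adjusted p = 1.92e-06), Bhlhe40, a basic helix-loop-helix factor, at -1.39 (SE 0.10, edgeR adjusted p = 1.9e-05), and Il1rn, the antagonist of the interleukin-1 receptor, at -1.55 (SE 0.12, edgeR adjusted p = 2.03e-05). The other lower ones were Mmp12, at -1.08 (SE 0.09, edgeR adjusted p = 4.44e-05), and Matk, at -0.68 (SE 0.14, edgeR adjusted p = 0.00872). Mrc1, Cd163, Atp6v0d2, Bhlhe40, Il1rn and Mmp12 passed in all 14 alternative analyses, and Matk in 12. Leaving out replicate 3 without lipids gave 4 higher and leaving out its replicate 1 gave 8 lower, and library totals alone gave 4 higher. Of the 10 genes below the filter, Retnla, Ccl17 and Cd209e were at 0 counts in all 6 libraries. Chil3 had 5, 3 and 1 counts in libraries with lipids, against 3, 0 and 3 in those without. Pdcd1lg2 had 3, 0 and 1 counts in libraries with lipids, against 2, 1 and 2 in those without. These 5 were named after their values were seen. Retnla, Ccl17, Chil3 and Pdcd1lg2 are among the genes that IL-4 induces strongly in mouse macrophages. At 0 or few counts, they could not show a difference in either direction at this depth. Ccl24, also named after its values were seen, had 14, 14 and 10 counts with lipids, against 2, 1 and 8 without. It did not pass (log2 fold change 1.54, SE 0.50, edgeR adjusted p = 0.0738). Of the 22 tested genes, 8 had a positive and 14 a negative log2 fold change.

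**Figure D4:**
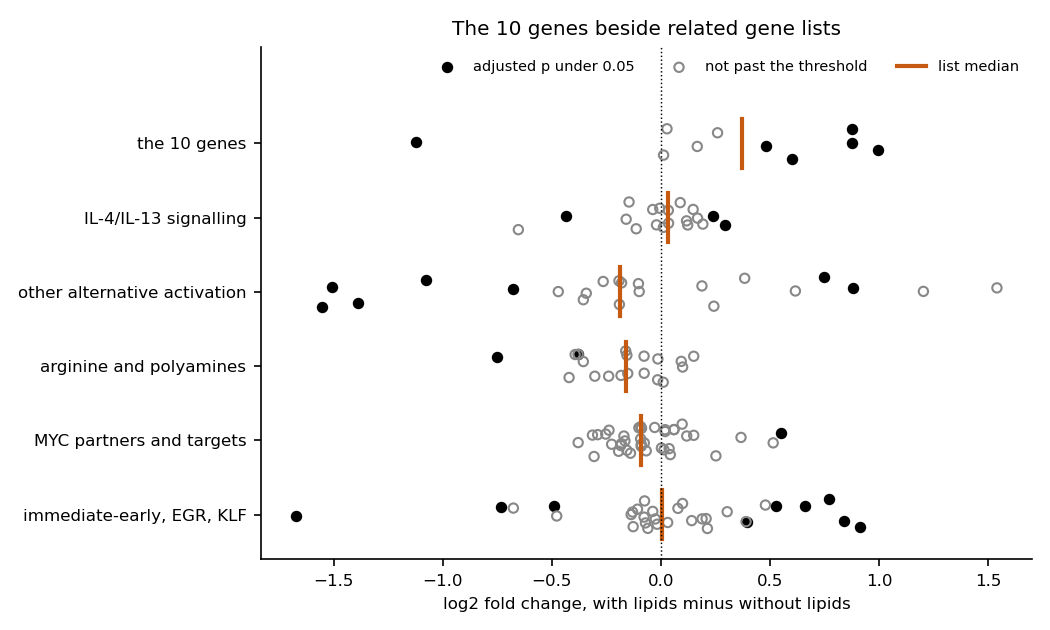
Log2 fold change, with lipids minus without lipids, of every tested member of the 10 genes and of 5 related lists. Filled points had an edgeR adjusted p under 0.05 and orange lines are list medians, which were 0.37 for the 10 genes and between -0.19 and 0.03 for the 5 lists.

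Around Arg1, 23 genes of arginine and polyamine metabolism were listed and 20 were tested, of which 0 were higher and 2 lower, with a median of -0.16. That share of calls is near the 11.5% over all tested genes. Ass1, which rebuilds arginine from citrulline, averaged 1.75 ± 0.10 CPM with lipids against 2.96 ± 0.60 CPM without lipids, or -0.75 on the log2 scale (SE 0.19, edgeR adjusted p = 0.0255). Sms, spermine synthase, was at -0.38 (SE 0.10, edgeR adjusted p = 0.037), a call also lost with library totals alone (adjusted p = 0.0738). Lower calls numbered 0 when any library with lipids or replicate 2 without lipids was left out, 5 when replicate 1 and 6 when replicate 3 of that group was left out, 4 with DESeq2 and 5 with the replicate number as a block. Nos2, the enzyme that competes with ARG1 for arginine, had 1 or 2 counts per library.

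Of 39 MYC partners and targets, 38 were tested, 1 was higher and 0 lower, with a median of -0.09. The shares over all tested genes were 4.58% higher and 6.87% lower. The higher one was Ccnd2, cyclin D2, at 29.1 ± 3.1 CPM with lipids and 19.9 ± 4.2 CPM without lipids (log2 fold change 0.55, SE 0.14, edgeR adjusted p = 0.0297), a call lost without replicate 1, 2 or 3 with lipids (adjusted p = 0.14, 0.0858 and 0.0502). Leaving out replicate 1 without lipids gave 3 higher and 4 lower, and leaving out replicate 3 gave 3 and 3. Max, the partner of MYC, was at -0.17 (SE 0.06, edgeR adjusted p = 0.115), and Ncl, nucleolin, at 0.01 (SE 0.09, edgeR adjusted p = 0.942).

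Egr2, Klf4 and Myc belong with genes that respond within minutes to growth factors and handling, and this list also split. Of 35 immediate-early, EGR and KLF genes, 32 were tested, 6 were higher and 3 lower, with a median of 0.01. Lower calls numbered 6 when replicate 1 without lipids was left out. Among all tested genes, 4.58% were called higher and 6.87% lower. Atf3, a stress-induced factor, averaged 130.0 ± 2.1 CPM with lipids against 216 ± 2.8 CPM without lipids (log2 fold change -0.73, SE 0.05, edgeR adjusted p = 1.65e-05). Klf3, a repressor of the KLF family, was higher at 0.53 (SE 0.07, edgeR adjusted p = 0.000951). Ccn1 and Ccn2, secreted matrix-associated proteins, were higher at 0.77 and 0.66 (SE 0.11 and 0.10, edgeR adjusted p = 0.00129 and 0.00143). Atf3, Klf3, Ccn1 and Ccn2 passed in all 14 alternative analyses.

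Genes whose levels ran most like those of the called members, Arg1 left out for its low level, were found by Pearson correlation of log2 CPM over the 6 libraries, among 9489 protein-coding genes with a mean of at least 5 CPM. The closest to Il4ra were Castor2, Sipa1l1 and Zmat3 (r = 0.996, 0.996 and 0.995), of which Castor2 and Sipa1l1 also passed the test, at log2 fold changes of 0.32 and 0.56 (edgeR adjusted p = 0.0139 and 0.00167). The closest to Irf4 were Cmah, Klhl6 and Nxpe5 (r = 0.996, 0.994 and 0.993), and to Clec10a they were Gtse1, Tcf19 and Cux1 (r = 0.999, 0.999 and 0.995). The closest to Egr2 were Ppp2r1a, Cyc1 and Rptor (r = 0.998, 0.997 and 0.997), and to Thbs1 they were Ankrd50, Snx6 and Cd86 (r = 0.999, 0.994 and 0.994). With 6 libraries in 2 groups that share these values, the coefficients are a description of pattern only.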

How the data were processed

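RNA libraries of 6 macrophage samples, 3 per group, were analysed, with groups taken from the sample titles. The authors deposited raw counts per Ensembl gene, 1 table per library; GRCm38.p4, TopHat2 2.1.0, HTSeq and DESeq2 appear without roles in the submitters' processing notes. Libraries were made with a stranded mRNA kit, per the labels' protocols, but the sources used here give no strand setting for counting, so opposite-strand overlaps may share reads. GENCODE M21 on GRCm38 matched 46091 identifiers and left 512, which held 0.129% to 0.142% of counts.

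Genes were filtered with filterByExpr (minimum count 10, minimum total 15), scaled by TMM, and tested with edgeR 4.0.16 in R 4.3.3 by a two-sided quasi-likelihood F test over 12767 genes. SE values come from the F statistic. Tested on counts simulated for with against without lipids (12645 genes), the fit recovered 20% of 50 genes at 1.25-fold, 69.4% of 49 at 1.5-fold, 91.8% of 49 at 2-fold and 100% of 49 at 4-fold, and 16 of its 154 calls were false. The simulation changed far fewer genes than the 1462 called in the data, evenly up and down, so its rates need not carry over. DESeq2 1.42.0 and limma 3.58.1 served as alternatives, with other scalings, filters, a replicate block and each library left out. Levels per kb used the union of exons. No 2 replicates agreed within sampling noise. All 10 genes are named, with up to 4 called members of each related list by smallest p and the 3 genes most like each called member of at least 5 CPM. In the alternative activation list all called genes are named. Other list members were named after their values were seen. Some genes stand in more than 1 list. The 10 genes and the lists were chosen with earlier results of these data known.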

Additional observations from a re-analysis of the deposited data

How the results depend on the processing

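The calls for Il4ra, Irf4, Egr2 and Thbs1 held in all 14 alternatives tried, and the number of the 10 genes called was 4 to 6 higher and 1 lower throughout. Signs turned only for Il13ra1 and Myc among the genes followed through every alternative, with log2 fold changes of -0.0381 to 0.11 for Il13ra1 (negative in 2 fits, the other at -0.0311) and -0.0874 to 0.34 for Myc (negative in 2 fits, the other at -0.0626) when each library was left out. Neither passed in any fit. Over all genes, calls numbered 1241 higher with library totals alone, 1009 higher without the filter, and 1450 higher and 1919 lower with limma-voom and sample weights, against 585 and 877. They ran from 219 to 1566 higher and 423 to 1975 lower when each library was left out, with the largest counts when replicate 1 without lipids was left out. The cause was not tested. Deviations of same-numbered libraries from their group means had correlations of -0.01, -0.09 and 0.18. Those of differently numbered libraries lay between -0.13 and 0.16. With 3 libraries per group, these values cannot show whether libraries were paired. The replicate block gave 715 higher and 937 lower genes and left the 10 genes at 5 and 1. Counts of the related lists moved by over 1.5 times in 45 instances, and those from left-out libraries are given beside each list. Without the filter, IL-4 signalling had 2 lower (against 1), alternative activation 4 higher (2), arginine metabolism 8 lower (2), the MYC list 3 higher and 5 lower (1 and 0) and immediate-early genes 5 lower (3). Sample weights gave 4 lower, 5 higher, 8 lower, 3 higher and 10 lower, and 5 lower in the same order. Library totals alone gave 1 lower arginine gene (2) and 3 higher MYC list genes (1), DESeq2 gave 1 lower MYC list gene (0), and the block gave 2 lower signalling genes and 2 higher and 1 lower MYC list genes. Arg1 rests on 11 to 35 counts per library.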

Other observations

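Some markers of macrophages and of other cells differed between the groups, in both directions, and none of the 10 genes is among these markers. Of 8 macrophage markers, Itgam, the integrin CD11b, averaged 1504 ± 7.6 CPM with lipids against 1019 ± 23 CPM without (log2 fold change 0.56, edgeR adjusted p = 7.72e-05), higher in 3 of 3 libraries. Fcgr1, an Fc receptor, was higher at 0.29 (edgeR adjusted p = 0.00815), while Cd68, a lysosomal glycoprotein, was lower at -0.55 (edgeR adjusted p = 0.000306). The other 5, Adgre1, Csf1r, Lyz2, Mertk and Cd14, did not pass. Over all tested genes, 4.58% were called higher and 6.87% lower with lipids.

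Of 6 eosinophil markers, the chemokine receptor Ccr3 averaged 30.4 ± 2.6 CPM with lipids against 15.1 ± 2.2 CPM without (log2 fold change 1.01, edgeR adjusted p = 0.000244), while Epx, eosinophil peroxidase, was at 0 counts in all 6 libraries. Ccr2, listed for monocytes, averaged 68.4 ± 2.5 CPM with lipids against 41.5 ± 6.4 CPM without (log2 fold change 0.72, edgeR adjusted p = 0.000945). Of 8 neutrophil markers, 0 passed the filter and the 8 summed to at most 0.999 CPM in a library.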
